A study of Homo sapiens with 4 samples.

Results

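Voltage-gated calcium and sodium channel genes were described by the accessible chromatin at and around them in A375 cells, an established human melanoma line, treated with octanoate or its vehicle. The genes were the RefSeq protein-coding genes whose symbols begin with CACNA1, CACNA2D, CACNB or CACNG, or read SCN, a number and A or B, 40 genes in all. Their members were the regions of the authors' deposited table that overlapped the gene span extended by 10 kb on both sides, 334 of 125986 regions, and 4 of the 334 lay within reach of more than 1 of the genes. The assay was ATAC-seq, where a transposase cuts open DNA and tags the ends for sequencing. Per the labels, A375 cells in DMEM with 10% serum were given 1 mM of octanoate (a fatty acid of medium chain length) or isopropanol for 48 h, and each group had 2 libraries. Whether the 2 libraries of a group came from separate cultures is not given in the sources used here, and the labels name no genetic change in either group.

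Voltage-gated calcium channels open when the membrane depolarises and let calcium into the cell, where it acts as a messenger for secretion, contraction and transcription. A pore-forming alpha1 subunit (the CACNA1 genes) sets the channel type: L-type CaV1, the P/Q-, N- and R-type CaV2 channels of synapses, or the low-threshold T-type CaV3 channels. Auxiliary alpha2delta and beta subunits carry CaV1 and CaV2 pores to the membrane and tune them, and most of the gamma family (the TARPs) instead escort AMPA-type glutamate receptors. Voltage-gated sodium channels start the action potential of nerve and muscle, with a pore subunit from a gene ending in A and beta subunits that also act as adhesion molecules. Melanocytes descend from the neural crest, the source of many peripheral neurons.

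The table gave nothing library by library, so every level below is the mean over the 4 libraries on the authors' scale and every change is their log2 fold change of octanoate over vehicle with its standard error. The deposited adjusted p equals an adjustment over the 11185 regions whose mean reached 63.8 normalized reads, called tested regions here. The other regions are listed with an adjusted p of 1 and are treated here as not tested. The p-values measure only the spread between these 4 libraries, which may be technical. In bulk chromatin a region open in fewer cells and a region less open in each cell cannot be told apart. The signal at markers of the cell type was mixed per the authors' deposited table. Of the pigment cell markers, the start of MITF lay in a region with a mean of 168.4, that of PAX3 in one of 58.2 and that of DCT in one of 30.0, but no region covered the starts of MLANA or TYR. No region covered the starts of KRT5 or PTPRC, markers of keratinocytes and blood cells, but that of TP63, another keratinocyte marker, lay in a region with a mean of 15.7. The starts of the neuronal genes SYP and RBFOX3 lay in regions with means of 49.6 and 4.74. The start of GAPDH had 263.3.

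Where a channel gene was open at its start, the start was mostly rich in CpG dinucleotides. The table of RefSeq promoters used here (GRCh38.p14) had 40 starts for 26 of the 40 genes, and the starts of the other genes are not analysed here. The deposited coordinates carry the build name hg38 in the submitters' processing notes, which is the same assembly. The sequences below run 5′ to 3′ from 250 bases before to 50 after the start, with each CG in capitals. The first 5 starts lay inside a listed region and the next 3 did not, and they are shown to set CpG-rich starts beside starts with few CG. The starts shown for CACNA1E and SCN10A lie inside the gene spans and not at their 5′ ends. At the 5′ end of the CACNA1E span there was a listed region (chr1:181317540-181319206, mean 30.1, 95% interval of the log2 fold change -0.74 to 0.74 per the authors' deposited table). SCN2A is added as a start with few CG that nevertheless lay in a listed region.
CACNA2D1 (chr7:82443907-82444206, minus strand): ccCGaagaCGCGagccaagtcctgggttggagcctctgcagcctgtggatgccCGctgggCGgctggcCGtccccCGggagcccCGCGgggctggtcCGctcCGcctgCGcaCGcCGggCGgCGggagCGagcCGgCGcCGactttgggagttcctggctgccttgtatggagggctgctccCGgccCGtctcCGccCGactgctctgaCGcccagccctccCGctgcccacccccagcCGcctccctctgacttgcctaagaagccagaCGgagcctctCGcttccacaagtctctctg
SCN9A (chr2:166375895-166376194, minus strand): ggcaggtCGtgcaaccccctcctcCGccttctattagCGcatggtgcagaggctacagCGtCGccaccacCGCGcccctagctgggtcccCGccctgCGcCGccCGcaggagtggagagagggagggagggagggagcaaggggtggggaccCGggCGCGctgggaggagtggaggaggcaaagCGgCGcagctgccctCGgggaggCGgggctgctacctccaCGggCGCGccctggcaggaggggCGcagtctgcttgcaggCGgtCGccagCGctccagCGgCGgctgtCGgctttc
CACNA2D3 (chr3:54122302-54122601, plus strand): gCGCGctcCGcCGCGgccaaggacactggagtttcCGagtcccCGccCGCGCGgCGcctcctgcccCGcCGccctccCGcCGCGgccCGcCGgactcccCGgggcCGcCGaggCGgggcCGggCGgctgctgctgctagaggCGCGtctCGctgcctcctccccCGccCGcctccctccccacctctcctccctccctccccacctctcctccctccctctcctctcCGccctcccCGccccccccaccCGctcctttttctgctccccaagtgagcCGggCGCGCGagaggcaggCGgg
SCN8A (chr12:51590983-51591282, plus strand): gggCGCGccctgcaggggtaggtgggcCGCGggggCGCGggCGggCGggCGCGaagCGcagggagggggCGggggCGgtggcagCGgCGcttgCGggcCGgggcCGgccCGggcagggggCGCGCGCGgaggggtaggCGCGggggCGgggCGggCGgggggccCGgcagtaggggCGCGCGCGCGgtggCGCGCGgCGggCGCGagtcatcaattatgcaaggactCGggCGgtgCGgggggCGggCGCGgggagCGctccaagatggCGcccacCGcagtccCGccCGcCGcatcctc
CACNB3 (chr12:48814230-48814529, plus strand): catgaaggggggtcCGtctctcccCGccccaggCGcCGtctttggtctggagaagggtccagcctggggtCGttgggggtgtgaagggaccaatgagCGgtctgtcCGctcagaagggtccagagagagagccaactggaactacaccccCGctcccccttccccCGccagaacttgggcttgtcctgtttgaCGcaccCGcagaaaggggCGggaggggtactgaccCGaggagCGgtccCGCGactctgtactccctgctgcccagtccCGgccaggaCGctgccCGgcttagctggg
CACNA1B (chr9:137877532-137877831, plus strand): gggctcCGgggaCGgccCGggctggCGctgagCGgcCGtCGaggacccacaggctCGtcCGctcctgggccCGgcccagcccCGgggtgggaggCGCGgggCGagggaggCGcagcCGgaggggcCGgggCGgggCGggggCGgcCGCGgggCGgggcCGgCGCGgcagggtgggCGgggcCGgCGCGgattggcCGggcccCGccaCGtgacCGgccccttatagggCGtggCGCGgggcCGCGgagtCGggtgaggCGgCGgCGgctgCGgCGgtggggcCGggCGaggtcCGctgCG
CACNA1E (chr1:181483267-181483566, plus strand): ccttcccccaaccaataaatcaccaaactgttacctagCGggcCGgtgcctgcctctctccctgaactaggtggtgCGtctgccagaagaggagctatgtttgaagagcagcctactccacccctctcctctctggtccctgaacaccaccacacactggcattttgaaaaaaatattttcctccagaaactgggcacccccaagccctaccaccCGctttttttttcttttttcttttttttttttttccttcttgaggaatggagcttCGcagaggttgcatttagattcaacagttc
SCN10A (chr3:38793961-38794260, minus strand): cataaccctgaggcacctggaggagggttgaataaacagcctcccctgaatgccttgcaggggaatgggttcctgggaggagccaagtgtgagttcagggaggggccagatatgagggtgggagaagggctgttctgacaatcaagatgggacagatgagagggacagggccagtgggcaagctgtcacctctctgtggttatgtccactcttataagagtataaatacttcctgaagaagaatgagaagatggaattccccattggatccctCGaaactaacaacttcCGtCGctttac
SCN2A (chr2:165239164-165239463, plus strand): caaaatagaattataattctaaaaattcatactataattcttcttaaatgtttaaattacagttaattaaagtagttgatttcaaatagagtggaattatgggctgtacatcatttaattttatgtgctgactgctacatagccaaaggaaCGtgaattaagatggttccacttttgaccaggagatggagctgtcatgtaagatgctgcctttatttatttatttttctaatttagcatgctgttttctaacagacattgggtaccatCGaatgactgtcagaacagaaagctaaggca

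Of the 40 channel starts, 22 (55.0%) lay in a listed region, from 17 of the 26 genes, against 64.8% of 22199 starts of protein-coding genes. The 22 starts lay in 19 regions, since 3 starts of CACNB4 shared 1 region and 2 of CACNB3 another. Counts by start therefore take some regions more than once. The median CpG count was 28 at the 22 starts in a region and 5.5 at the other 18, and their median GC content was 70.8% and 48.3%. Among starts with 20 or more CpG, 16 of 18 channel starts (88.9%) and 90.02% of all protein-coding starts lay in a region. With 10 to 19 CpG the counts were 3 of 5 channel starts and 66.3% of all, and with 9 or fewer they were 3 of 17 (17.6%) and 19.5%. Channel starts thus lay in regions about as often as other starts of like CpG count, and no test of these shares was made. The exceptions were named after their values were seen. CACNA1B, the pore of N-type channels, had 49 CpG and CACNA1A, the pore of P/Q-type channels, had 21, and neither start was covered. The covered starts with few CpG belonged to an inner start of SCN1A (3 CpG, mean 14.8), SCN2A (2 CpG, mean 8.60) and an inner start of CACNB4 (8 CpG, mean 17.05). SCN1A and SCN2A encode pores of brain sodium channels.

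**Figure D1:**
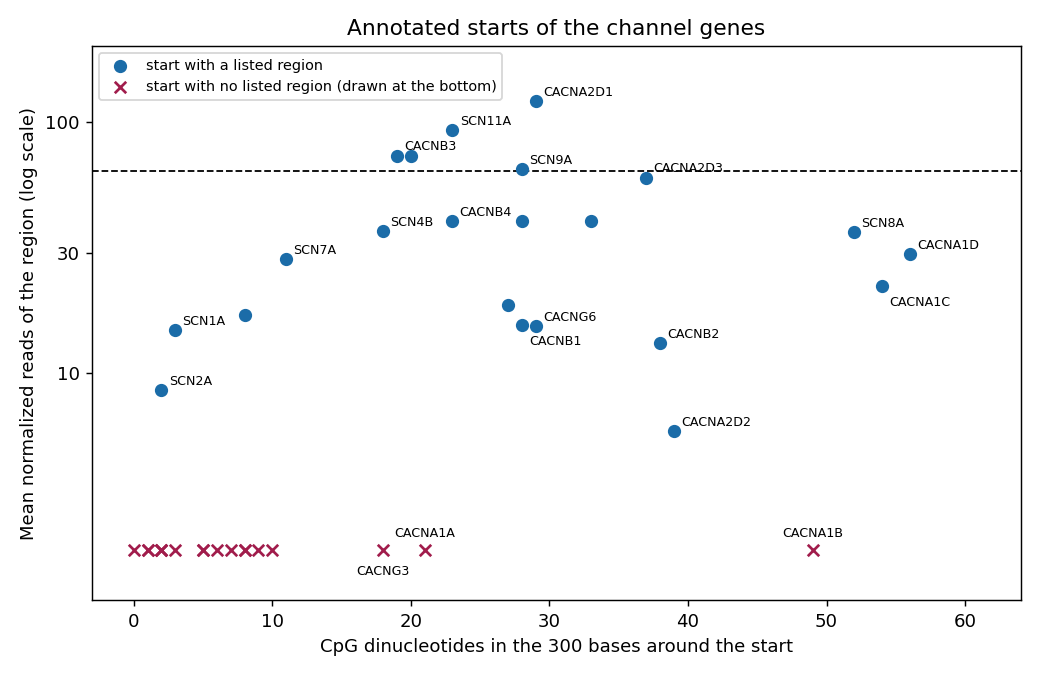
CpG dinucleotides in the 300 bases around each of the 40 annotated starts (x) against the mean normalized reads of the region over the start (y, log scale). Crosses at the bottom are the 18 starts with no listed region, and the dashed line is the lowest tested mean, 63.8. Most crosses lie at 10 CpG or fewer, CACNA1B at 49 is an exception, and CACNA2D1 has the highest point, 120.1.

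Short motifs were sought on both strands of the same 300 bases, and a match is only a description of the letters. The left part of the RE1 element of the neuronal repressor REST, TTCAGCACC, was in 1 of 40 channel starts (CACNG3, which lay in no region) and in 0.351% of all starts. The right part, GGACAG, was in 11 of 40 (27.5%) and in 21.1% of all starts. The GC box GGGCGG was in 22 of 40 (55.0%, 56.3% of all starts). It was in 16 of the 22 channel starts in a region, beside 72.1% of all protein-coding starts in a region. CCAAT was in 13 (34.7% of all starts), TATAAA in 2 (SCN10A and a start of SCN2A that lay in no region, 9.47% of all starts), the E-box CACGTG in 2 (8.34%), the AP-1 site TGACTCA in 1 (SCN1A, 4.01%) and the cyclic AMP element TGACGTCA in 0 (2.26%). The GC box, the E-box and the cyclic AMP element each hold a CG, so their matches overlap the capitals in the sequences.

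Regions were listed for 39 of the 40 genes, CACNG1 being the exception. The channel genes were long, with a median span of 111.3 kb against 24.1 kb for 20037 protein-coding genes, and had a median of 5 regions against 3. Per 100 kb of extended span the medians were 4.20 and 5.28. The 5 genes with most regions, CACNA1E (51), CACNA2D3 (47), CACNA1C (36), CACNA2D1 (22) and CACNB4 (18), together held 174 of the 334 (52.1%). By density, SCN3B had 13.2 regions per 100 kb, CACNG6 12.0 and CACNG8 10.6, all short genes. CACNA1E, the R-type pore, had 9.99, the highest of the 5 genes with most regions, while CACNA1A had 0.937 (3 regions) and CACNA1B 1.12 (3 regions). CACNA2D3 is longer still, with 952.0 kb, and had 4.84 per 100 kb.

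The regions were weak. Their median mean was 11.4 normalized reads against 12.2 for all nuclear regions per the authors' deposited table, or 27.8 per kb of region in both sets. Only 12 of 334 (3.59%) reached the level of a tested region, against 8.88% of nuclear regions. The channel members nearest this level were the start of SCN9A above it (64.6) and the start of CACNA2D3 below it (59.8). The median standard error was 0.63 for the channel regions and 0.23 for the 12 tested ones (log2 scale), so the fold changes of most channel regions are known only coarsely.

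None of the channel regions passed the authors' test. By the authors' deposited table, none (0 of 12) of the tested channel regions reached an adjusted p below 0.05 in DESeq2 with Benjamini-Hochberg adjustment, where 1.02% of all tested regions did. At an unadjusted p under 0.05, 1 of the 12 was higher and 0 were lower, beside 14.8% and 0.107% of all tested regions. Their median log2 fold change was 0.19, equal to the 0.19 of all tested regions to this precision, and 10 of 12 were above 0.

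**Figure D2:**
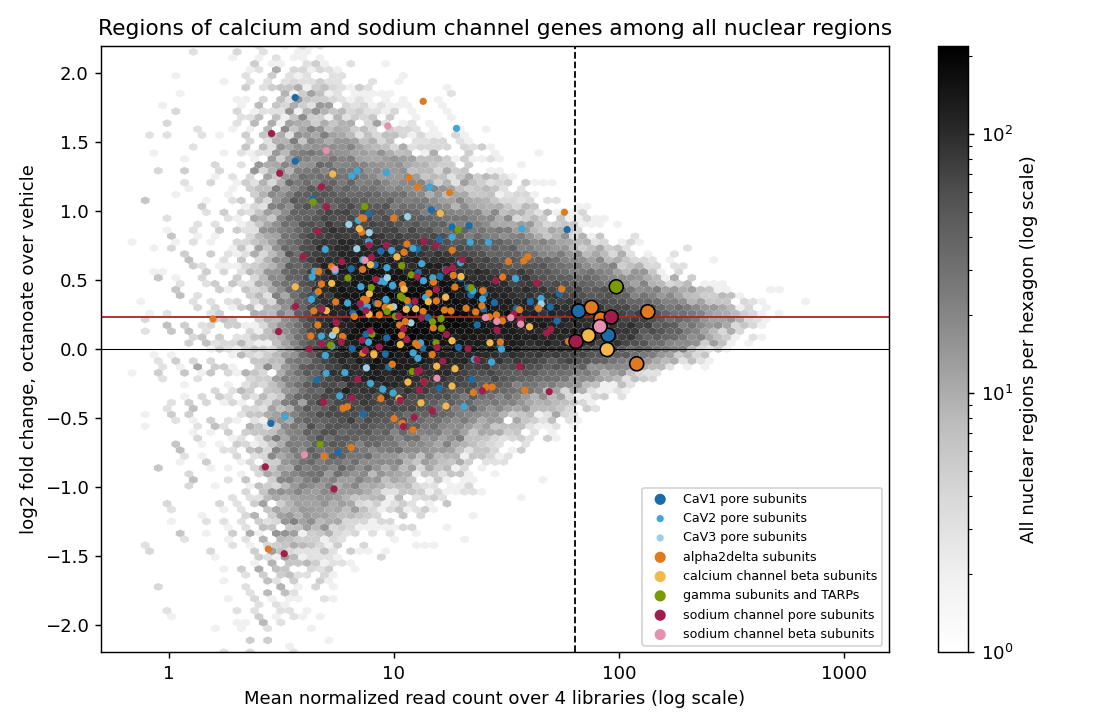
Mean normalized reads over the 4 libraries (x, log scale) against the log2 fold change of octanoate over vehicle (y) for the 334 channel regions, coloured by subunit family, over the nuclear regions in grey. Nuclear regions with a log2 fold change beyond 2.2 in either direction, or a mean beyond the right end of the x axis, are not drawn. Large outlined points are the 12 tested regions, right of the dashed line at 63.8, and the red line is the median of all nuclear regions, 0.23; the channel regions lie within the grey cloud.

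Of the 12 tested regions, 5 lay within 1 kb of an end of a neighbouring gene that is no channel gene. The first 4 are described together. The region counted for SCN11A (chr3:39051599-39052623) overlapped an end of WDR48 as well as a start of SCN11A, that of CACNA2D2 (chr3:50359075-50359963) an end of TMEM115 and that of CACNA1C (chr12:2003856-2004844) an end of DCP1B, a neighbouring gene. The region counted for CACNA1S, the skeletal muscle L-type pore (chr1:201114063-201114825), lay 120 bp from an end of ASCL5. These 4 regions of the authors' deposited table had means of 66.3 to 92.6 and log2 fold changes of 0.10 (CACNA1C), 0.22 (CACNA2D2), 0.23 (SCN11A) and 0.28 (CACNA1S). Whose promoter such a region belongs to was not tested. The tested region counted for CACNB4 also lay within 1 kb of an end of such a neighbouring gene. It was outside the CACNB4 span but within 10 kb. Per the authors' deposited table it had a mean of 88.8 and a log2 fold change of -0.0033 (95% interval -0.44 to 0.43, adjusted p 0.996). It was 1 of the 2 tested channel regions below 0.

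The other 7 tested regions lay over 1 kb from the end of any gene that is no channel gene. The start of CACNA2D1 (chr7:82442599-82444891), whose product is a binding site of gabapentin, had a mean of 120.1 over 2293 bp, or 52.4 per kb, per the authors' deposited table. Its mean and fold change imply 124.6 normalized reads with vehicle and 115.7 with octanoate, a log2 fold change of -0.11 (standard error 0.19, 95% interval -0.48 to 0.27, adjusted p 0.831). It was the lowest value among the tested channel regions and the interval spans both 0 and the median of all regions.

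CACNA2D3, a related alpha2delta gene, had the strongest channel region, inside the gene and far from any other gene's end (359.5 kb). In the authors' deposited table this region (chr3:54557267-54558764) had a mean of 134.6, or 89.9 per kb, with implied levels of 122.0 and 147.2 for vehicle and octanoate. The log2 fold change was 0.27 (95% interval -0.09 to 0.63, adjusted p 0.490). A second region of CACNA2D3 (chr3:54891441-54892253, mean 75.6) had 0.30 (95% interval -0.20 to 0.80).

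The start of SCN9A, the sodium channel of pain-sensing neurons, had a mean of 64.6 (chr2:166375331-166376804) and a log2 fold change of 0.05 (95% interval -0.46 to 0.57) per the authors' deposited table. CACNB3 (chr12:48814261-48816022), a beta subunit of neuronal calcium channels, had 2 of its starts in 1 region with a mean of 73.3 and a change of 0.10 (95% interval -0.38 to 0.57). The region at one end of the span of SCN3B, a sodium channel beta subunit (chr11:123653756-123655008), had a mean of 82.5 and a change of 0.16 (95% interval -0.29 to 0.62). All 3 had intervals that include 0 and the median of all nuclear regions.

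The tested region counted for both CACNG8 and CACNG6 (chr19:53979960-53981653) was the 1 with an unadjusted p under 0.05. CACNG8 encodes a TARP of hippocampal AMPA receptors, and CACNG6 a gamma subunit of calcium channels. The region lay within the CACNG8 span and had a mean of 97.4 per the authors' deposited table, with implied levels of 82.3 for vehicle and 112.6 for octanoate. Its log2 fold change was 0.45 (standard error 0.22, 95% interval 0.03 to 0.88, unadjusted p 0.0373, adjusted p 0.2996), which did not pass the test. After the median of all nuclear regions was subtracted its unadjusted p was 0.305.

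**Figure D3:**
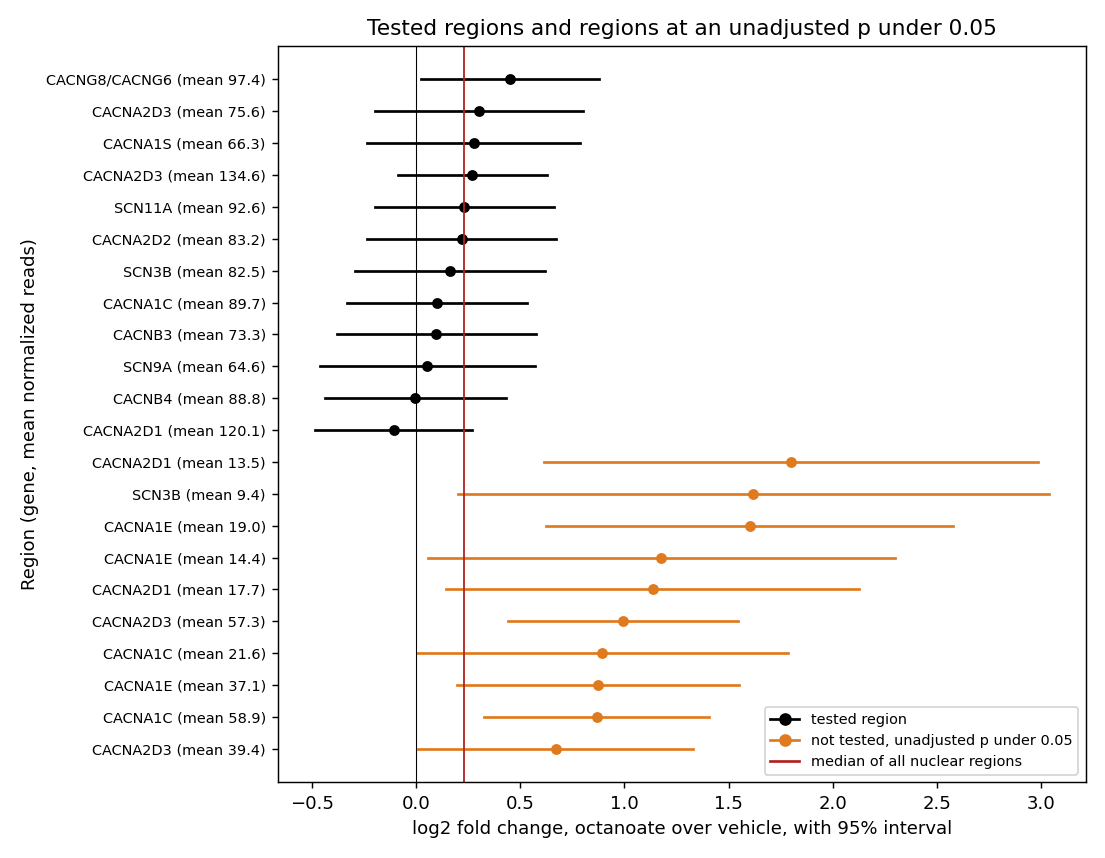
Log2 fold change of octanoate over vehicle with its 95% interval (x) for the 12 tested regions in black and for 10 regions below the tested level with an unadjusted p under 0.05 in orange, each labelled by gene and mean normalized reads (y). The red line is the median of all nuclear regions, 0.23; all 12 black intervals cross it, and 11 of them cross 0.

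Below the tested level the deposited table still gives unadjusted p-values, and they were read against the same count over all regions. Among all 334 channel regions 11 (3.29%) were higher and 0 lower at an unadjusted p under 0.05, per the authors' deposited table. Over all nuclear regions 3.58% were higher and 0.179% lower. By level the channel counts were 5 of 45 with a mean of 30 or more (10.7% of all such regions), 5 of 143 with a mean from 10 to 30 (2.86%) and 1 of 146 with a mean under 10 (0.459%). The channel shares lay near the background at each level. Adjusted over all regions of the table, the smallest p of the 11 was 0.330.

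Each of the 11 regions lay within the span of a channel gene and none covered an annotated channel start. Their log2 fold changes ran from 0.45 to 1.80 and their means from 9.40 to 97.4. After the median of all nuclear regions (0.23) was subtracted, 4 of the 334 were higher and 0 lower at an unadjusted p under 0.05, where 0.813% and 0.809% of all nuclear regions were. The 4 belonged to 4 genes: CACNA2D3, CACNA1E, CACNA1C and CACNA2D1. They were chosen by their p, so their values are a description. Of the other 6 regions below the tested level, 2 lay in CACNA1E (log2 fold changes 0.87 and 1.18) and 1 each in CACNA2D1 (1.14), SCN3B (1.62), CACNA2D3 (0.67) and CACNA1C (0.89), per the authors' deposited table.

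The CACNA2D3 region (chr3:54320250-54321030) had a mean of 57.3 per the authors' deposited table, with implied levels of 38.3 for vehicle and 76.3 for octanoate and a log2 fold change of 0.99 (95% interval 0.44 to 1.54, unadjusted p 0.000410). The region of CACNA1C, the cardiac and neuronal L-type pore (chr12:2640434-2641136), had a mean of 58.9 with implied levels of 41.7 and 76.1 and a change of 0.87 (95% interval 0.33 to 1.40). Both lay just under the tested level and inside long genes, 428.4 kb (CACNA2D3) and 153.8 kb (CACNA1C) from the nearest end of another gene.

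The other pair was weaker and less precise. The CACNA1E region (chr1:181726625-181727168) had a mean of 18.99, with implied levels of 9.41 and 28.6 and a log2 fold change of 1.60 (95% interval 0.63 to 2.58), per the authors' deposited table. The CACNA2D1 region (chr7:82183678-82184212) had a mean of 13.5, with implied levels of 6.04 and 21.0 and a change of 1.80 (95% interval 0.61 to 2.98). The start of CACNA2D1 had a value below 0, and the difference between both regions was not tested.

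By subunit family, the pores of CaV1 channels had 53 regions in 4 genes with a median log2 fold change of 0.33 per the authors' deposited table, and 45 of 53 were above 0. CACNA1C held most of them and had a median of 0.31 over 36 regions, from -0.75 to 1.83. CACNA1D, the L-type pore of pacemaking and endocrine cells, had 10 regions with a median of 0.38, all above 0, with its start (mean 29.7) at 0.02 (95% interval -0.73 to 0.78). CACNA1S had 5 regions and a median of 0.28. CACNA1F, the retinal L-type pore, had 2 regions, at 0.31 and 0.34, both outside its span and over an end of another gene. One of them is the region over the start of SYP given above.

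CaV2 pores had 57 regions with a median of 0.45 and 43 above 0 per the authors' deposited table, nearly all of them from CACNA1E. The 51 regions of CACNA1E ran from -0.42 to 1.60 with a median of 0.46, and 38 were above 0. Its span was cut into 3 equal stretches from its 5′ end, with regions beyond the span counted in the nearest stretch. The medians were 0.36 (23 regions), then 0.51 (12) and 0.64 (16). The median standard error of the CACNA1E regions was 0.69, and the rise along CACNA1E was not tested. Its strongest region had a mean of 45.1, so none was tested. The regions within 1 Mb around the gene had a median of 0.32, and 2 of them passed the authors' test: these lay 204.1 kb and 174.8 kb upstream of the CACNA1E span, nearest to IER5 (log2 fold changes 0.90 and 0.62, adjusted p 0.00139 and 0.0281). After the median of tested regions was subtracted their adjusted p was 0.157 and 0.838. CACNA1A and CACNA1B, with 3 regions each, had medians of 0.42 and 0.05.

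CaV3 pores, which give low-threshold T-type currents, had 10 regions in 3 genes with a median of 0.42 per the authors' deposited table, and none was tested. CACNA1G had 5 regions and a median of 0.31, with its strongest region (mean 45.2) at 0.33 (95% interval -0.29 to 0.95). CACNA1H and CACNA1I had 3 and 2 regions with means of at most 11.5 and medians of 0.73 and 0.93. Their surroundings within 1 Mb had medians of 0.02 and -0.01, and with so few reads the difference was not tested.

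Alpha2delta genes had the most regions of any family, 83, with a median of 0.28 and 64 above 0 per the authors' deposited table. CACNA2D3 had 47 regions with a median of 0.29 and its start (mean 59.8) at 0.05 (95% interval -0.48 to 0.59). A region 85.6 kb beyond the CACNA2D3 span, outside the 10 kb limit, passed the authors' test with a log2 fold change of 0.62 (adjusted p 0.0495, and 0.949 after the median of tested regions was subtracted). CACNA2D1 had 22 regions with a median of 0.16, from -1.45 to 1.80. With CACNA2D1 cut likewise, 2 of 6 regions were above 0 in the stretch that holds its start, against 6 of 8 and 7 of 8 in the other stretches. The medians of the same stretches were 0.27, 0.45 and 0.26 for CACNA2D3 and 0.29, 0.26 and 0.40 for CACNA1C, so values did not rise steadily along those genes. CACNA2D4 had 10 regions with a median of 0.51 and its strongest region (mean 55.7) at 0.44, and CACNA2D2 had 4 regions with a median of 0.26.

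**Figure D4:**
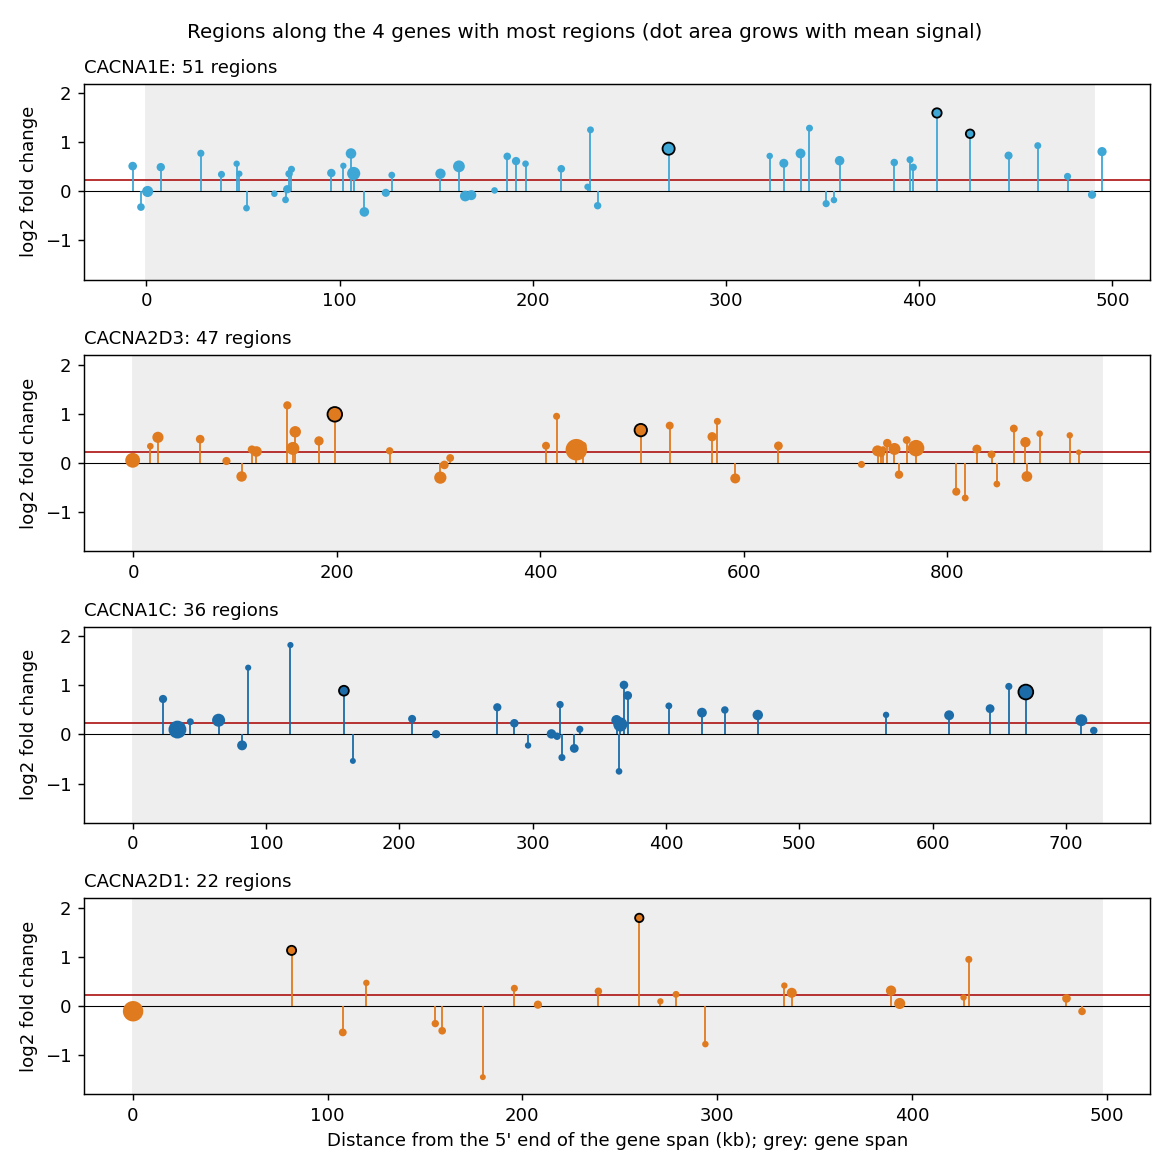
Log2 fold change of octanoate over vehicle (y) against the distance from the 5′ end of the gene span in kb (x) for the regions of CACNA1E, CACNA2D3, CACNA1C and CACNA2D1, with dot area growing with mean signal, black outlines for an unadjusted p under 0.05, and the gene span in grey. The red line is the median of all nuclear regions, 0.23; regions on both sides of it occur along each gene, and the start of CACNA2D1, its largest dot, lies at -0.11.

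Calcium channel beta genes had 32 regions with a median of 0.27 per the authors' deposited table. CACNB4, a neuronal beta subunit, had 18 regions with a median of 0.27, and the region over 3 of its starts (mean 40.1) was at 0.16. CACNB2, the main cardiac beta subunit, had 9 regions, all with means of at most 14.2, and a median of 0.43. CACNB1, which assembles with the skeletal muscle pore, and CACNB3 had 3 and 2 regions with medians of -0.12 and -0.02.

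The gamma family had 21 regions in 7 of 8 genes, with a median of 0.37 and 19 above 0 per the authors' deposited table. Most were weak: outside the tested region of CACNG8 and CACNG6, CACNG2 (stargazin) had 3 regions with means of at most 12.1, CACNG3 had 5 with means of at most 14.9 and CACNG4 3 with means of at most 12.0. The 3 genes on chromosome 19, CACNG6, CACNG7 and CACNG8, lie side by side and had 8 regions in all, 3 of them counted for both CACNG6 and CACNG8. Each was above 0, with a median of 0.38. Their surroundings within 1 Mb had a median of 0.43 with 87.5% of 80 regions above 0.

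Sodium channel regions had lower values than calcium channel regions. In the authors' deposited table the 78 sodium channel regions had a median of 0.17 and 71.8% above 0, and the 256 calcium channel regions had 0.32 and 79.3% above 0. At an unadjusted p under 0.05, 1 of 78 (1.28%) and 10 of 256 (3.91%) were higher, beside 3.58% of all nuclear regions. The difference was not tested, because no value per library exists and regions of 1 gene share their surroundings.

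Low values were found in the sodium channel cluster on chromosome 2. There SCN1A, SCN2A and SCN3A, pores of brain sodium channels, SCN9A, and SCN7A, a relative that senses sodium, had 33 regions with a median of 0.13 per the authors' deposited table. By gene the medians were -0.03 (SCN1A, 6 regions), 0.07 (SCN2A, 10), 0.07 (SCN3A, 3), 0.05 (SCN9A, 9) and 0.14 (SCN7A, 5). The 135 regions within 1 Mb around this cluster that are not channel regions had a median of 0.08, with 57.0% above 0. On chromosome 3 lie SCN10A and SCN11A, pores of sensory neurons. SCN10A had 5 weak regions (means of at most 12.4) with a median of 0.67, and SCN11A had 11 with a median of 0.15.

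SCN8A, the pore at the initial segment of axons, lies on chromosome 12 and had 8 regions with a median of -0.03 per the authors' deposited table. Its CpG-rich start had a mean of 36.3 and a change of -0.13 (95% interval -0.80 to 0.55). SCN4A, the skeletal muscle pore, had 2 regions with a median of 0.88 and means of at most 18.2. Sodium channel beta genes had 11 regions with a median of 0.23, among them 6 for SCN3B (median 0.42), 3 for SCN2B and 2 for SCN4B. SCN2B and SCN4B shared 1 of these.

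**Figure D5:**
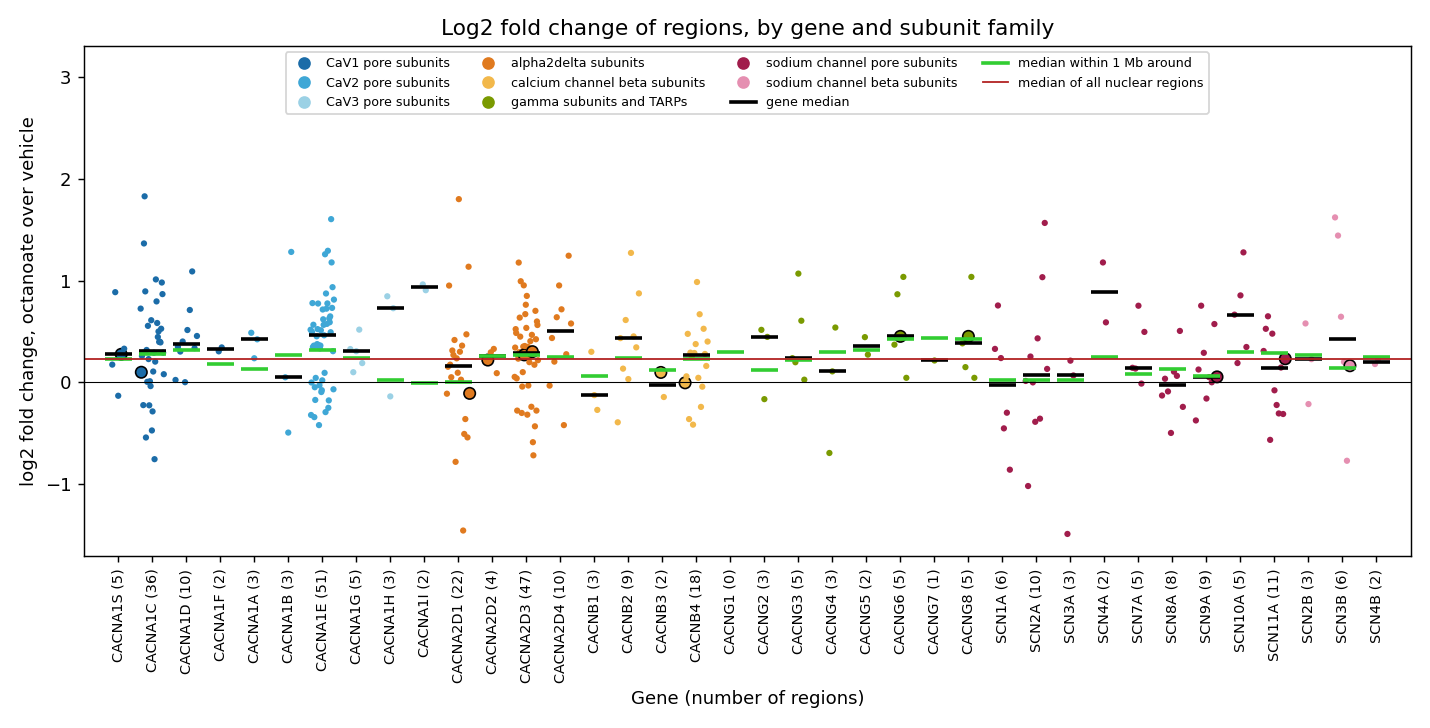
Log2 fold change of octanoate over vehicle (y) of every region of the channel genes shown (x, with the number of regions), coloured by subunit family, with tested regions outlined and regions shared by neighbouring genes drawn under each. Black bars are gene medians, green bars the medians of other regions within 1 Mb and the red line the median of all nuclear regions, 0.23. The genes of the chromosome 2 cluster, SCN1A, SCN2A, SCN3A, SCN7A and SCN9A, have both bars below the red line. So do SCN8A, CACNA2D1, CACNB1 and CACNB3, which lie elsewhere.

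Gene medians varied along with those of their surroundings. Over the 22 genes with at least 5 regions, the gene median and the median of non-channel regions within 1 Mb correlated with Pearson's r of 0.69 and Spearman's rho of 0.71. This is a description across genes, which share the same 4 libraries, and clustered genes also share surroundings. The 22 medians ran from -0.03 (SCN1A and SCN8A) to 0.67 (SCN10A), 15 exceeded the median of all nuclear regions and 16 exceeded their own surroundings.

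Regions over starts had lower fold changes than channel regions as a whole, which was not tested. The 19 regions over a channel start had a median log2 fold change of 0.02 per the authors' deposited table, and 11 of 19 were above 0. At an unadjusted p under 0.05 there were 0 of 19, beside 3.58% higher and 0.179% lower of all nuclear regions. With 19 regions, a count of 0 is near those shares. Counted per start, the median was 0.05 for channel starts and 0.13 for all protein-coding starts in a region. Channel starts in regions were also weaker, with a median mean of 33.0 against 71.5. All 334 channel regions had a median of 0.29, against 0.23 for all nuclear regions. The 60 channel regions within 5 Mb of the outermost listed region of a chromosome, 46 of them at CACNA1C and CACNA2D4, had a median of 0.38 and the other 274 had 0.28. Over all nuclear regions the same pair of medians was 0.33 and 0.22. The part of position in these values was not tested.

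Other genes of membrane excitability were taken by the same rule for comparison. Potassium channel genes (symbols beginning KCN, 95 genes) had 771 regions with a median of 0.27 per the authors' deposited table, and 4.15% were higher at an unadjusted p under 0.05, with 1 region lower. Glutamate and GABA receptor genes (48 genes) had 577 regions with a median of 0.29, 3.29% higher and 1 region lower. Over all nuclear regions 3.58% were higher and 0.179% lower. Of these regions 5.58% and 5.37% were tested, against 3.59% for calcium and sodium channels, and 0 passed the adjusted threshold in either group. No test of the difference was made.

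Genes that work with the channels were taken from 4 lists. Of 21 genes for calcium release, store-operated entry and extrusion, 20 were matched, and 1 of their 23 tested regions passed the authors' test and was higher, where 1.02% of all tested regions passed. It lies within RYR2, the calcium release channel of heart and brain (chr1:237759174-237760316), with a mean of 231.4 and a change of 0.75 on the log2 scale (standard error 0.14, adjusted p 0.000255) per the authors' deposited table. After the median of tested regions was subtracted its adjusted p was 0.114. At an unadjusted p under 0.05, 4 of the 23 were higher and 0 lower, and the list's 284 regions had a median of 0.33. Over all tested regions 14.8% were higher and 0.107% lower, and the counts of all 4 lists are to be read against these shares.

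The other 3 lists had 0 regions past the adjusted threshold. Partners and inhibitors of calcium channels (19 genes) had 13 tested regions, 2 of them higher and 0 lower at an unadjusted p under 0.05, with a median of 0.18 over 148 regions per the authors' deposited table. The smallest p among its tested regions belonged to RIMS2, which tethers vesicles near calcium channels (log2 fold change 0.52, adjusted p 0.130). Partners of sodium channels and the sodium leak complex (14 genes) had 17 tested regions, 0 of them at an unadjusted p under 0.05, with a median of 0.23 over 312 regions. Among the tested regions the smallest p was at NALCN, the sodium leak channel (log2 fold change 0.37, adjusted p 0.485). Calcium effectors (14 genes) had 24 tested regions, 2 of them higher and 0 lower, with a median of 0.17 over 118 regions. The smallest p of a tested region here was at NFATC2, a calcium-dependent transcription factor (log2 fold change 0.49, adjusted p 0.246). Counted over all their regions, tested or not, the calcium effectors had 3 higher and 2 lower at an unadjusted p under 0.05 (2.54% and 1.69%, beside 3.58% and 0.179% of all nuclear regions). The release and extrusion list had 14 higher, the sodium channel partners 7 and the calcium channel partners 2, each with 0 lower.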

How the data were processed

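ATAC-seq was made from A375 cells in 2 octanoate and 2 vehicle libraries. Per the submitters' processing notes, the tools named are Trim Galore, cutadapt, FastQC, Bowtie2, Picard, MACS2, featureCounts, DESeq2 and bedtools 2.29.1, with the build hg38; their settings are not given in the sources used here. The authors deposited 1 table of regions with a mean normalized signal, a log2 fold change and its standard error (log2), the test score (the fold change over its error), a p-value and an adjusted p-value. Recomputing score, p-value and adjusted p-value from the deposited columns gave differences of at most 2.31e-14. An adjusted p of 1 was listed for 114801 regions with means under 63.8, which were treated as not tested.

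Regions within 10 kb of a gene span (RefSeq) were assigned to it, with Python 3.11.15, pandas 2.3.3 and scipy 1.17.1. Group levels were computed from the mean and fold change, with equal weight on both groups. Intervals are 95% and normal. Total reads per library are not used here, since the table holds none, and the standard errors carry the precision.

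The genes and lists were chosen with earlier results of these data known. The text names every tested region and those with an unadjusted p under 0.05, regions over starts where tested, the gene with most regions in each family and, per list, regions past the adjusted p or the tested region with the smallest p. Other genes were named after their values were seen. A few genes are not reported here by name, though their regions stay in the counts. Alternatives covered thresholds, centring, flanks and filters on low signal.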

Additional observations from a re-analysis of the deposited data

How the results depend on the processing

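The count of 0 channel regions past the adjusted p held under all 8 alternatives tried (thresholds of 0.01 and 0.1, adjustment over all regions or from the 25th percentile of the mean, both centrings, flanks of 0 and 50 kb). The count of 1 at an unadjusted p under 0.05 became 0 after centring on the median of tested or of all nuclear regions and 0 at p under 0.01. It became 3 of 29 tested regions with a flank of 50 kb, beside 14.8% of all tested regions that were higher. It became 11 of 334 (3.29%) when regions below the tested level were counted, beside 3.58% of all nuclear regions that were higher. The latter setting was chosen after seeing the data. The median log2 fold change of all channel regions, 0.29, was 0.23 with the strongest region per gene and 0.063 relative to the nuclear median. That of the tested ones, 0.19, was 0.0053 relative to the tested median. Other alternatives stayed within 0.05. No paired analysis was possible because values per library are not in the table, and leaving out a replicate could not be done for the same reason. The low signal of most regions limits the precision.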
